A study of Mus musculus with 28 samples.

Results

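The genes described here carry signals from G protein-coupled receptors inside the cell: G protein alpha subunits (symbols starting with Gna), beta subunits (Gnb) and gamma subunits (Gng), adenylyl cyclases (Adcy), cyclic nucleotide phosphodiesterases (Pde) and regulators of G protein signalling (Rgs). A probe set, the group of oligonucleotides that reports on a transcript, was included when the platform annotation gave it a single gene symbol starting with Gna, Gnb, Gng or Adcy, or with Pde or Rgs followed by a digit, without Rgs2 and Rgs5. This gave 86 of the 12488 probe sets on the array, for 59 of the 8251 genes that had a probe set of their own. By family they were 27 probe sets for Gna, 7 for Gnb, 9 for Gng, 11 for Adcy, 15 for Pde and 17 for Rgs. The rule on symbols also took in Adcyap1, which encodes the neuropeptide PACAP, its receptor Adcyap1r1, the anchoring protein gene Pde4dip and the antisense transcript Gnasas1, none of which encodes a cyclase, a phosphodiesterase or a G protein. Gnal, Gng7, Adcy1, Adcy5, Pde4a, Pde4d and Pde10a had no probe set under the rule.

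Whole brains of 28 C57BL/6J mice of both sexes were hybridised to the Affymetrix U74Av2 array, with 1 array per mouse. Untreated mice were 6 wild-type mice aged 6 to 9 weeks, 5 alpha7+/T mice (6 to 8 weeks), which are heterozygous for the L250T allele of the nicotinic receptor subunit alpha7, and 5 beta4-/- mice (6 to 9 weeks), which lack the nicotinic receptor subunit beta4. The seized mice, 3 wild-type (7 to 8 weeks), 5 alpha7+/T (8 weeks) and 4 beta4-/- (7 to 8 weeks), were taken 1 hour after a seizure brought on by intraperitoneal nicotine. The dose differed by genotype so that the seizures would be of like severity, and no group was injected with nicotine without a seizure, so seizure, drug and dose cannot be told apart. Both alleles are carried in every cell from the germ line, and a whole brain mixes all regions and cell types, so fewer cells of a type and less RNA per cell cannot be told apart. Mice are numbered here within their group only to name them.

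An activated receptor makes the alpha subunit of its G protein exchange GDP for GTP and part from the beta-gamma pair. The Gs and Golf alpha subunits stimulate adenylyl cyclase, the Gi and Go subunits inhibit it or act through beta-gamma on potassium and calcium channels, the Gq and G11 subunits activate phospholipase C beta, and the G12 and G13 subunits form a further class. Rgs proteins speed GTP hydrolysis by alpha subunits and so end the signal, while phosphodiesterases break down the cyclic AMP and cyclic GMP that cyclases make. Go is among the most abundant proteins of brain membranes, and Rgs4 is known as a gene of cortical neurons whose transcript level responds to activity and drugs.

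Upstream sequences are shown for 3 of the genes because the results turn on them: Gnao1, which had probe sets that passed in each of the comparisons with a passing member, Rgs16, whose groups did not overlap, and Rgs4, whose seizure difference averaged over genotypes was the largest of any member. Each is the 250 bases before the RefSeq start of the gene in GRCm38.p6, written 5′ to 3′ on the gene's strand. Capitals mark TGACG, the core of the cyclic AMP response element, on either strand (its reverse complement is CGTCA).
Gnao1 (chr8:93810588-93810837, plus strand): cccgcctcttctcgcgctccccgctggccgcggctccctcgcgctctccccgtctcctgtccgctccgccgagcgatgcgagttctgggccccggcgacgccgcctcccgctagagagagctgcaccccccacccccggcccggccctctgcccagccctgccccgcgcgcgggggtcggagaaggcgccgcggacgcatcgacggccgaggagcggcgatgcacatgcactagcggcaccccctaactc
Rgs16 (chr1:153740103-153740352, plus strand): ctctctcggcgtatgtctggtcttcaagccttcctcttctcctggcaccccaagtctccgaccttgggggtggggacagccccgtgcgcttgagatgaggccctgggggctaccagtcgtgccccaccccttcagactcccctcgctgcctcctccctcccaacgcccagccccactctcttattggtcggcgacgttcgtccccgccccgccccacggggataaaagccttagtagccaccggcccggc
Rgs4 (chr1:169747643-169747892, minus strand): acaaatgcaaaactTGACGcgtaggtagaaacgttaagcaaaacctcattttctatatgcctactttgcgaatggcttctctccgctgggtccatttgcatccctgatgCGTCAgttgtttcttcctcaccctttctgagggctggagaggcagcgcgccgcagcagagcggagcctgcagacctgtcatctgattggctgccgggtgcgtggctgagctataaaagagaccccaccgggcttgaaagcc
The Gnao1 stretch is rich in G and C (76.4%), the Rgs4 stretch much less so (53.6%). Rgs4 held 2 such cores, starting 236 and 141 bases before the start, and the other two held none. RefSeq promoter windows were at hand for 43 of the 59 genes. Searched on both strands over the whole window, from 250 bases before to 50 after the start, the full element TGACGTCA was in 0 of the 43 genes and in 2.03% of all 27025 genes with a window. The core TGACG, which lies within the full element, was in 13 of the 43 genes (30.2%) and in 23% of all genes. A match of letters is no evidence that a factor binds there.

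The deposited values were signals scaled to a common mean, and 62 of the 86 probe sets (45 genes) had a signal above their array's median on at least 3 arrays and were tested together with all other such probe sets, 7350 in all. Of these 62, 20 were Gna, 6 Gnb, 7 Gng, 10 Adcy, 7 Pde and 12 Rgs. Genes with no tested probe set included the photoreceptor members Gnat1, Gnat2, Gnb3, Gngt2, Pde6a, Pde6b and Pde6g, and also Gna14, Gna15, Gnasas1, Pde1c, Pde7a, Rgs6 and Rgs9, the striatal Rgs gene. The arrays were divided into 2 classes by the log2 ratio of the Gapdh probe set at the 3′ end of the transcript to the one at the 5′ end. In 9 arrays it was below 0.5 (called low-ratio arrays) and in 19 it was above (high-ratio arrays). The labels do not name these classes, and what sets them apart was not tested. The low-ratio arrays were untreated alpha7+/T mice 3 and 4, seized alpha7+/T mice 1, 2 and 3, and mice 1 and 2 of both beta4-/- groups; no wild-type array was among them. Ages differed too, since 4 of the 5 untreated alpha7+/T mice were 6 weeks old and all seized mice were 7 weeks or older. Neuron markers were present in every group (summed signal 8430 to 13300 per array), and liver markers were near the bottom of the scale (13 to 45).

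Averaged over the 3 genotypes, no member of these families passed the test after seizure. The adjusted p-value was at or above 0.05 for all 62 tested probe sets in limma, whereas 0.408% of all tested probe sets passed. At an unadjusted p under 0.05 there were 8 members (12.9%, against 8.64% of all tested probe sets), 3 higher and 5 lower, where 4.67% of all tested probe sets were higher and 3.97% lower. The higher ones were Rgs4, the cyclase gene Adcy7 and a probe set of Gnb1 (94854_g_at), and the lower ones were Gna11 (102196_at), Pde6d, Gnao1 (103843_at), Gnai2 (99598_g_at) and Adcy9 (98356_at). In the plot of differences by family, the Gna probe sets lay slightly below 0 as a set, with 16 of 20 negative and a median of -0.11 on the log2 scale, against 0.01 over all tested probe sets.

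**Figure D1:**
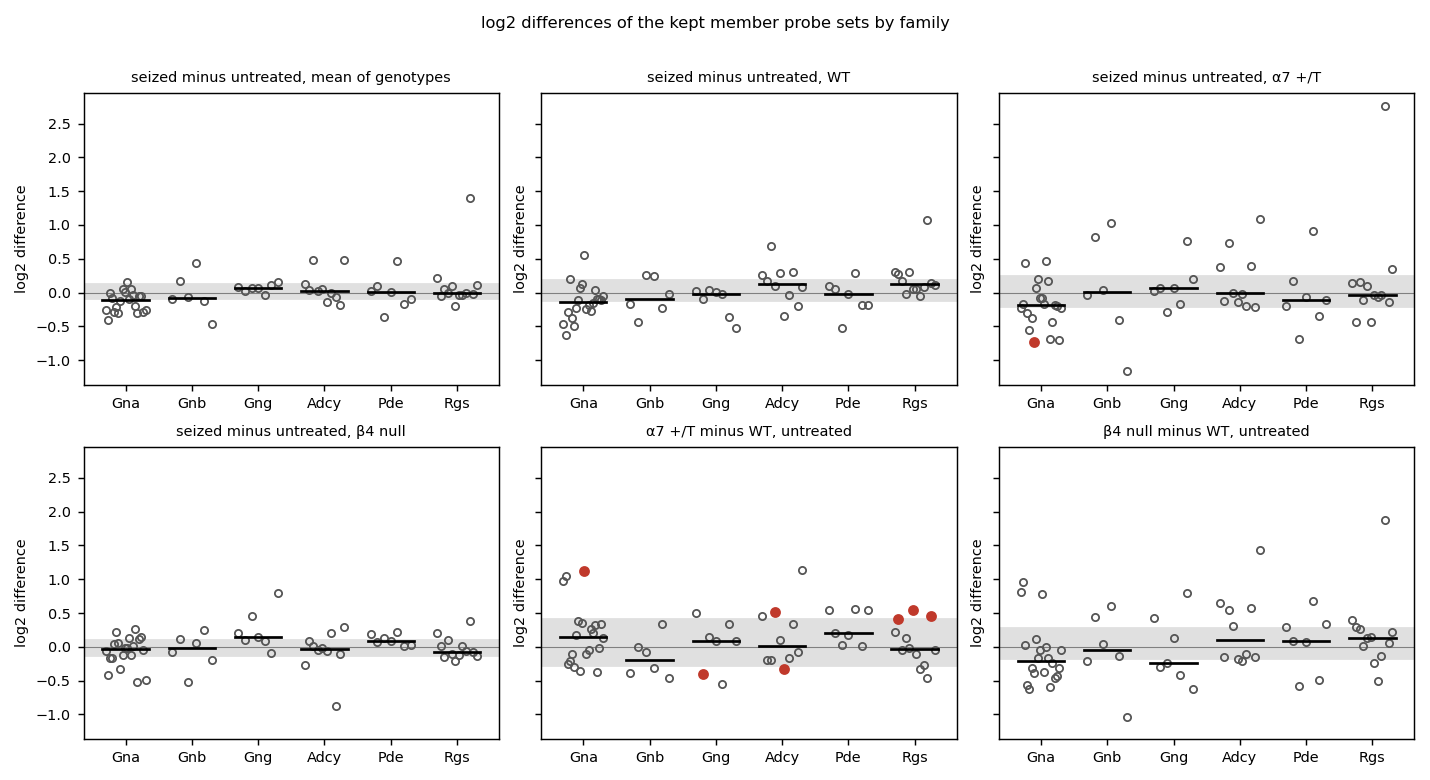
Log2 differences of the 62 tested probe sets by family (x axis) in 6 comparisons (panels); each circle is 1 probe set, filled red where it passed at an adjusted p under 0.05, bars are family medians, and the grey band holds the range from the 1st to the 3rd quartile of all 7350 tested probe sets. The 8 red points lie in the alpha7+/T seizure panel (1) and the untreated alpha7+/T panel (7), and the high Rgs point in several panels is Rgs4.

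After seizure in alpha7+/T mice, the main probe set of Gnao1, the gene of the Go alpha subunit, fell. Its signal (103843_at) was 3441, 3781, 3131, 2724 and 2672 in the 5 untreated alpha7+/T mice and 1811, 1532, 1688, 2287 and 2188 in the 5 seized ones, so the groups did not overlap. The difference was -0.73 ± 0.17 on the log2 scale (standard error), 1.66-fold lower, with an adjusted p of 0.0201. It was the only member to pass in that comparison (1.61% of 62, against 2.8% of all tested probe sets); 13 had an unadjusted p under 0.05 (21%, against 18.4%). Groups did not overlap for 3 members, Gnao1, Gna12 and Rgs8 (2.95% of all tested probe sets).

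In the other genotypes the same probe set was not called after seizure. Its signal ran from 2389 to 3340 (median 2712) in untreated wild-type mice and was 1966, 2482 and 2704 in seized ones, a difference of -0.23 ± 0.19. In beta4-/- mice it was 1490, 1582, 2859, 2566 and 2486 without and 1844, 1918, 2553 and 2612 with seizure, a difference of 0.05 ± 0.18. The low values in each of these beta4-/- groups were the 2 low-ratio arrays. The test of whether the seizure difference varied with genotype gave an unadjusted p of 0.0136 and an adjusted p of 0.493, so a difference between genotypes was not shown.

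Gnao1 had 3 more tested probe sets, and after seizure in alpha7+/T mice they lay between -0.17 and -0.09, well inside their errors. The array class moves with this result, because 3 of 5 seized and 2 of 5 untreated alpha7+/T arrays were low-ratio and 103843_at read lower on low-ratio arrays (by -0.45 ± 0.09). Within the low-ratio arrays alone the difference was -0.80 ± 0.14 (adjusted p = 0.00767) and within the high-ratio arrays -0.55 ± 0.17 (adjusted p = 0.124), the same direction in both. Age moves with it too: with age in weeks as a term the difference was about as large, -0.71 ± 0.20, but did not pass (adjusted p = 0.196), and among mice of 7 weeks or older, with 1 untreated mouse left, it was -0.51 ± 0.29 (adjusted p = 0.806). It also missed the threshold without untreated mouse 2 (-0.66, adjusted p = 0.0628) or mouse 3 (-0.73, adjusted p = 0.0515); leaving out each of the other mice kept the call (adjusted p 0.00774 to 0.0492). Among LT-prefix mice alone, which leave out no alpha7+/T mouse, it was -0.73 with an adjusted p of 0.0725.

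**Figure D2:**
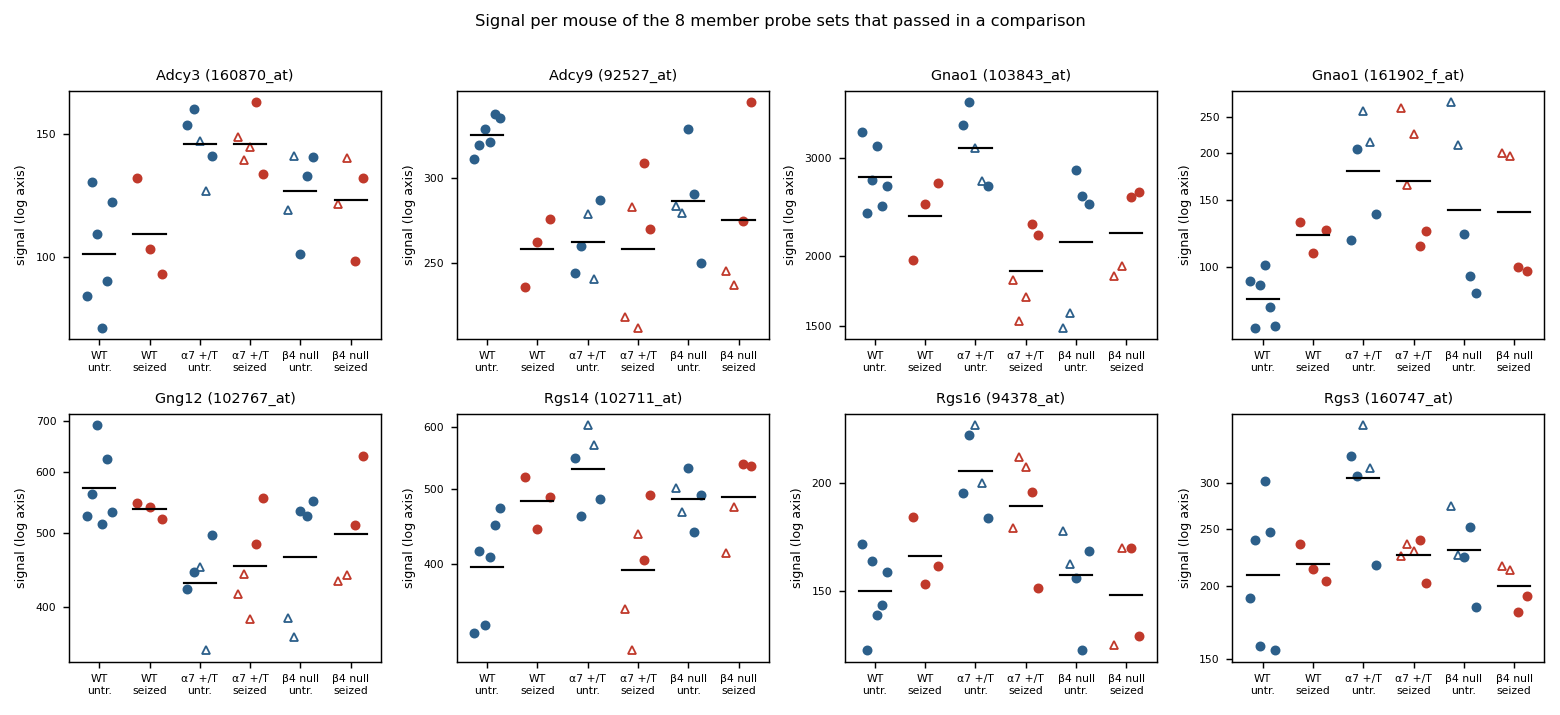
Signal (log axis, no unit) of each mouse in the 6 groups (x axis) for the 8 probe sets that passed in a comparison; blue is untreated, red seized, open triangles are low-ratio arrays, filled circles high-ratio arrays, and the bar is the mean of the log2 values. Gnao1 (103843_at) lies lower in all 5 seized alpha7+/T mice than in all 5 untreated ones, and Gnao1 (161902_f_at) and Rgs16 lie higher in all 5 untreated alpha7+/T mice than in all 6 untreated wild-type mice.

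In untreated mice, 7 member probe sets differed between alpha7+/T and wild-type brains, 5 higher and 2 lower (11.3% of 62, against 16% of all tested probe sets, 7.73% higher and 8.29% lower). At an unadjusted p under 0.05 there were 12 (19.4%, against 35.1%), and groups did not overlap for 5 (4.75% of all): Gnao1, Rgs16, Gng12, Adcy9 and the beta subunit gene Gnb5. Higher were Gnao1 (161902_f_at), the Rgs genes Rgs16, Rgs3 and Rgs14, and the cyclase gene Adcy3; lower were Gng12 (102767_at), a gamma subunit, and the cyclase gene Adcy9 (92527_at). With arrays centred on their medians the median of all tested probe sets moved by -0.24 and the split of calls was 1 higher and 5 lower. Gnao1 (0.89), Gng12 (-0.65) and Adcy9 (-0.57) were then called, whereas Rgs16 (0.22, adjusted p = 0.189), Rgs14 (0.18, adjusted p = 0.443), Adcy3 (0.28, adjusted p = 0.202) and Rgs3 (0.31, adjusted p = 0.137) were not. Sample names carry the prefix LT in all alpha7+/T mice, B4 in all beta4-/- mice, and LT in 3 (all 6 weeks old) and B4 in 3 of the 6 untreated wild-type mice. With the prefix as a term none of the 7 was called (adjusted p 0.0557 to 0.171), and 1 other member was, the phosphodiesterase gene Pde9a (0.92 ± 0.22, adjusted p = 0.0404). Against the 3 LT wild-type mice alone 0 members and 0% of all tested probe sets passed, while the differences were of like size: Gnao1 1.12, Rgs16 0.44, Rgs3 0.66, Rgs14 0.57, Adcy3 0.44, Adcy9 -0.30 and Gng12 -0.45. These and the seizure comparison in alpha7+/T mice share the 5 untreated alpha7+/T mice, so values in both are not separate evidence.

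Gnao1 by 161902_f_at, whose suffix marks probes that can match related sequences, ran from 68.9 to 101 (median 83.5) in untreated wild-type mice. It was 117, 206, 259, 215 and 138 in the untreated alpha7+/T mice, above every wild-type value. The difference was 1.13 ± 0.28 (2.18-fold, adjusted p = 0.0171). This probe set read higher on low-ratio arrays (by 0.94 ± 0.12), and its 2 low-ratio mice, 3 and 4, held the highest values; among high-ratio arrays alone the difference was 0.86 ± 0.19 with an adjusted p of 0.0663. The main probe set, 103843_at, differed by 0.17 ± 0.17 in the same mice.

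Rgs16, which acts on Gi and Gq alpha subunits, ran from 128 to 169.8 (median 150.9) by 94378_at in untreated wild-type mice. In untreated alpha7+/T mice it was 194.5, 227.1, 233.5, 199.7 and 182.2, again with no overlap. The difference was 0.46 ± 0.12 (1.38-fold, adjusted p = 0.0191). A second probe set of the gene, 161609_at, differed by -0.11 ± 0.20 and did not follow it.

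Rgs3 was 155.5 to 301.8 (median 215) in untreated wild-type mice and 333.9, 308.6, 376.9, 317.7 and 217.2 in untreated alpha7+/T mice. Mouse 5, the only one of the 5 aged 8 weeks, lay within the wild-type range and the other four above it (0.55 ± 0.16, adjusted p = 0.0252). Among mice of 7 weeks or older, where mouse 5 is the only alpha7+/T mouse left, the difference was -0.06. Rgs14, a scaffold of Gi and Ras signalling known from hippocampal area CA2, was 326.4 to 472.1 (median 412.5) and 548.1, 460.7, 603.7, 568.2 and 485.5, overlapping at 1 mouse (0.42 ± 0.12, adjusted p = 0.0295).

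Adcy3, the cyclase of olfactory neurons and neuronal cilia, was 79.3 to 128 (median 100.2) in untreated wild-type mice and 154.6, 163.2, 146.9, 124.4 and 139.8 in untreated alpha7+/T mice. All 5 lay above the wild-type mean (0.52 ± 0.14, adjusted p = 0.02). Of its values on low-ratio and high-ratio arrays there was little difference (0.00 ± 0.11). Adcy9, a widely expressed cyclase, was 312.6 to 343.9 (median 328.7) and then 244.9, 259.4, 278, 242 and 286.6, below every wild-type mouse (-0.33 ± 0.11, adjusted p = 0.0464). Its other probe set, 98356_at, differed by -0.07 ± 0.13.

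Gng12 by 102767_at was 513.8 to 691.2 (median 546.7) in untreated wild-type mice and 422.3, 444.9, 451.3, 351.5 and 496 in untreated alpha7+/T mice, with no overlap (-0.41 ± 0.13, adjusted p = 0.0393). Its second probe set, 99477_at, differed by 0.33 ± 0.45, the other way. With the array class as a term, Gng12 and Adcy9 were not called and Gnao1, Rgs16, Rgs3, Rgs14 and Adcy3 were; among high-ratio arrays alone none of the 7 was. Leaving out untreated alpha7+/T mouse 3 left 0 member calls and leaving out mouse 4 left 1 (Adcy3), while the differences stayed near the reported ones: without mouse 3, Gnao1 was 0.99, Rgs16 0.42, Rgs14 0.37, Rgs3 0.47, Adcy3 0.52, Adcy9 -0.35 and Gng12 -0.42 (adjusted p 0.065 to 0.102).

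**Figure D3:**
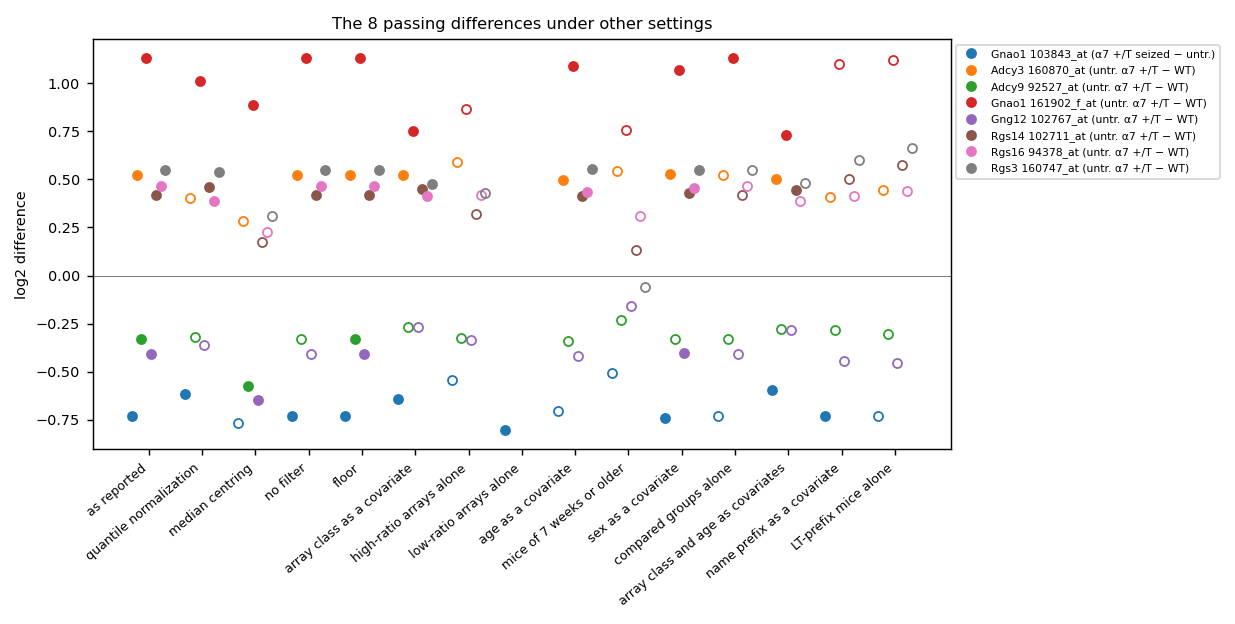
The log2 difference (y axis) of each of the 8 passing probe sets (colours) as reported and under 14 other settings (x axis); filled points passed at an adjusted p under 0.05 and open points did not. Rgs3 is the only one to change sign, at -0.06 in mice of 7 weeks or older, and low-ratio arrays alone give a value only for the seizure difference of Gnao1 because no wild-type array is low-ratio.

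Untreated beta4-/- and wild-type brains differed in no member after adjustment (0.0136% of all tested probe sets passed), though 16 members had an unadjusted p under 0.05 (25.8%, against 12.9%), 6 higher and 10 lower, where 7.63% of all tested probe sets were higher and 5.31% lower. The smallest was Gna11 (102196_at), the gene of a phospholipase-coupled alpha subunit, at 320 to 490.3 (median 403.4) in wild-type mice and 224.6, 194, 302.6, 277.7 and 300.9 in beta4-/- mice, the only member whose groups did not overlap (1.09% of all; -0.62 ± 0.15, unadjusted p = 0.000374, adjusted p = 0.336). Of the 16, 6 of 7 Gna probe sets were lower, including both Gnas probe sets, Gna12 and Gnai2 (99597_at). Higher ones included Adcy6 (0.64 ± 0.23), Adcy3 (0.30 ± 0.14) and Rgs14 (0.29 ± 0.12). Low-ratio arrays were 2 of 5 in this group and none in wild-type mice. Age and name prefix differed too. The 3 wild-type mice of 6 weeks had the prefix LT, and all beta4-/- mice B4. Gna12 (97226_at) was 540 to 628 in those 3 and 259 to 372 in the older wild-type mice. It was 236 to 388 in the 4 older beta4-/- mice. Over 13 other settings the difference ran from -0.72 to -0.13 for Gna12 and from -0.75 to -0.34 for Gna11 (102196_at).

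No member passed in the remaining comparisons by limma. Seizure in wild-type mice gave 0 calls (0.0544% of all tested probe sets) and 3 members at an unadjusted p under 0.05 (4.24% of all); groups did not overlap for 5 (4.23%): Gnao1 (161902_f_at) and Rgs4 read higher, and Adcy9 (92527_at), Gnai2 (99596_f_at) and Pde6d lower. Seizure in beta4-/- mice gave 0 (0.0136%) and 2 (1.74%). Seized alpha7+/T against seized wild-type mice gave 0 (0%) and 12 (12%), and seized beta4-/- against seized wild-type mice 0 (0.0136%) and 2 (4.42%). The genotype-by-seizure test gave 0 (0.0272%) and 9 (7.66%), with the smallest p for Rgs14 (0.00388, adjusted p = 0.386), whose seizure difference was 0.28 ± 0.15 in wild-type mice, -0.43 ± 0.13 with the +/T genotype and 0.01 ± 0.14 without beta4.

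Among the alpha subunits, Gnas, which encodes Gs, had its brightest probe set (93271_s_at) at 8927 to 11810 in untreated wild-type mice and 8030, 8785 and 9266 in seized ones. Its seizure difference averaged -0.09 ± 0.11 and none of its comparisons was called. Gnaq, the alpha subunit of the phospholipase pathway, was dim (15.5 to 53.8 in untreated wild-type mice) and averaged -0.26 ± 0.27. In alpha7+/T mice, Gnai2 by 99598_g_at was 1547, 2093, 1426, 1289 and 1414 without and 676.9, 865.4, 849.5, 1324 and 1109 with seizure. Only seized mouse 4 reached into the untreated range (-0.71 ± 0.20, adjusted p = 0.0533). Its other probe sets differed by -0.18 ± 0.25 (99596_f_at) and -0.20 ± 0.16 (99597_at).

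Gna11 and Gna12 had like values in these mice. Gna11 by 102196_at was 396.7, 435, 367.8, 345.8 and 295.3 without seizure and 224.4, 223.1, 252.2, 309 and 248.2 with it (-0.55 ± 0.16, adjusted p = 0.0568). Gna12, an alpha subunit gene of the G12 class, was 590.4, 468.4, 485.8, 568.6 and 390.6 and then 281.2, 347.5, 354.9, 352.1 and 228.6, with no overlap (97226_at, -0.68 ± 0.21, adjusted p = 0.065). By 102196_at and 97226_at both genes also read higher in 6-week than in older untreated wild-type mice. The second Gna11 probe set, 103411_at, overlapped there (199.4 to 273.3 at 6 weeks and 229.7 to 335 later). The untreated alpha7+/T group was mostly 6 weeks old.

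The beta subunit gene Gnb1 gave opposite readings by probe set. In seized against untreated alpha7+/T mice 94854_g_at differed by 1.03 ± 0.34 (adjusted p = 0.0905) and 97458_at by -1.16 ± 0.58 (adjusted p = 0.291), and neither passed. Gnb2 (96911_at) differed by -0.40 ± 0.23, and Gnb5, the partner of the Rgs7 family, by -0.04 ± 0.19. Without treatment, Gnb5 was 259.5, 265.7, 213.3, 265.6 and 299.1 in alpha7+/T mice, all below the wild-type range of 312 to 366.6 (-0.39 ± 0.18, adjusted p = 0.127).

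Gamma subunits were close to 0 after seizure averaged over genotypes, with 6 of 7 probe sets between 0.03 and 0.16. The abundant neuronal subunit gene Gng3 averaged 0.07 ± 0.11, Gng2 0.08 ± 0.18 and Gng4 0.16 ± 0.30. Gng10 was lower in untreated alpha7+/T than wild-type mice without passing (-0.55 ± 0.23, adjusted p = 0.0889); mouse 5 (498.6) lay within the wild-type range of 427.2 to 592.5 and the other four (205.8 to 339.1) below it.

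The 10 Adcy probe sets, which include Adcyap1 and Adcyap1r1, had a median of 0.03 after seizure averaged over genotypes. Adcy7, which is also expressed in microglia, had the smallest p of the family at 0.48 ± 0.21 (adjusted p = 0.514). In alpha7+/T mice it read 62.3, 13.7, 21.5, 33 and 57.8 without and 71.5, 44.2, 50.6, 48.6 and 57.4 with seizure, where the untreated group spreads across the seized one. The calcium-stimulated cyclase gene Adcy8 averaged -0.01 ± 0.09. The PACAP gene Adcyap1 averaged 0.05 ± 0.13 and its receptor gene Adcyap1r1 0.49 ± 0.44.

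Of the phosphodiesterases, Pde6d, a binding protein for lipid-modified proteins despite its name, had the smallest p after seizure averaged over genotypes (-0.36 ± 0.13, adjusted p = 0.357). It was 492.1, 556.8, 333.1, 275.4 and 276.6 in untreated and 179.4, 221.5, 194.6, 328 and 254.8 in seized alpha7+/T mice, where seized mouse 4 overlapped (-0.69 ± 0.21, adjusted p = 0.0622). The calcium-dependent Pde1b averaged -0.09 ± 0.17, and Pde4b, which degrades cyclic AMP, 0.10 ± 0.11. Pde8a averaged -0.17 ± 0.14, and Pde1a 0.47 ± 0.35. Pde1a (160861_s_at) read 27.5 to 106.5 on low-ratio and 9.31 to 35.7 on high-ratio arrays. It was above the array median on only 7 arrays, all low-ratio.

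Among the Rgs genes, Rgs4 had the largest difference of any member, 1.40 ± 0.67 averaged over genotypes (adjusted p = 0.574), and did not pass. Untreated wild-type mice read 3.13 to 21.5 (median 18.8) and seized ones 36.2, 27.6 and 27.7, with no overlap, but a group difference of 1.08 ± 1.23 against a large spread. In alpha7+/T mice it read 15.9, 6.68, 5.12, 105 and 2.12 without and 270.2, 257.8, 227.8, 25.4 and 4.27 with seizure. In beta4-/- mice it read 184, 170.1, 17.8, 35 and 21 without and 276.9, 260.8, 13.1 and 23.3 with seizure. All values above 36.2 came from low-ratio arrays. Every wild-type value, seized or not, lay below the lowest array median (43.6). Rgs4 was above its array's median on only 8 arrays, all low-ratio, and passed the filter by these alone. Rgs8, a Purkinje cell Rgs gene, was 495.5, 469.1, 471.6, 542.2 and 552.6 without and 646.5, 604.4, 580.1, 742.3 and 655.8 with seizure in alpha7+/T mice, with no overlap (0.35 ± 0.11, adjusted p = 0.0759). Its only tested probe set was 99553_f_at, whose suffix marks probes that can match related sequences. Rgs7, a partner of Gnb5, averaged -0.01 ± 0.14, and Rgs3 -0.19 ± 0.10.

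Array class was associated with more member probe sets than any comparison between groups. Low-ratio and high-ratio arrays differed at an adjusted p under 0.05 in 33 of the 62 probe sets (53.2%, against 52.1% of all tested ones), 18 higher (26.7% of all) and 15 lower (25.4%) on low-ratio arrays. In 5 of them the classes did not overlap (8.06%, against 8.56%): Pde1b, Adcyap1r1, Gnb4, Gng12 (99477_at) and Gnai2 (99596_f_at). Gnb4 was above the array median on only 8 arrays and Adcyap1r1 on 10. Both read higher on low-ratio arrays, so the filter kept them largely through that class, and their separation is partly set by the filter. Pde1b was 775 to 1197 on the 9 low-ratio arrays and 369 to 621 on the 19 high-ratio arrays. Gnai2 went the other way, 2196 to 3168 against 3965 to 5789. By family the share was 65% for Gna, 83.3% for Gnb, 57.1% for Gng, 40% for Adcy, 42.9% for Pde and 33.3% for Rgs. Pde1a (above the array median on 7 arrays) and Rgs4 (on 8) were also kept by the filter only through low-ratio arrays. The counts and shares by class include such members and so are partly set by the filter. The Adcy share counts Adcyap1 and Adcyap1r1, which are not cyclases and which both differed.

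**Figure D4:**
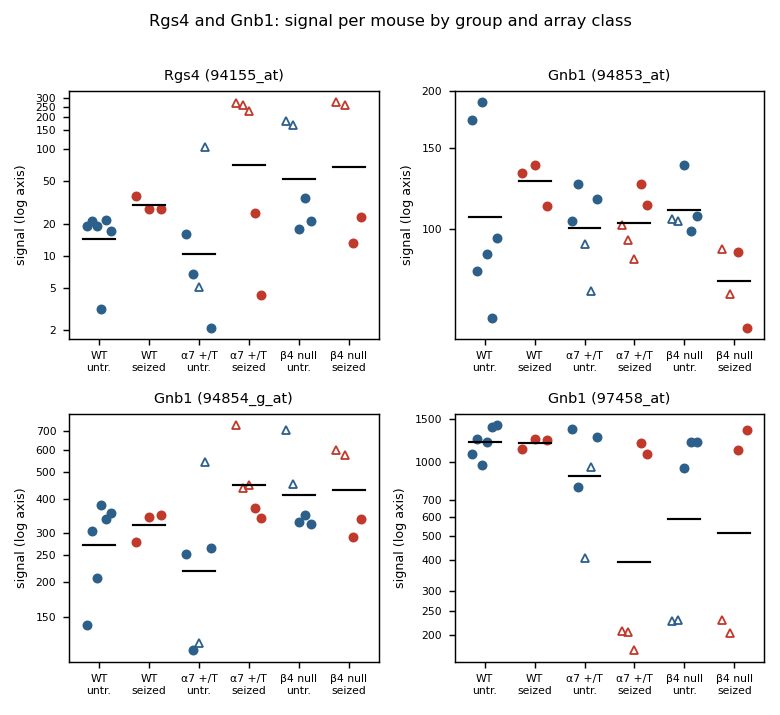
Signal (log axis) of each mouse in the 6 groups (x axis) for Rgs4 and the 3 tested probe sets of Gnb1; blue is untreated, red seized, open triangles are low-ratio arrays, filled circles high-ratio arrays, and the bar is the mean of the log2 values. For Rgs4 the triangles lie above 100 except 1, and for Gnb1 97458_at they lie below 300 except untreated alpha7+/T mice 3 and 4.

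Gnb1 by 97458_at read 173 to 230 on 7 of the low-ratio arrays, 409 and 952 on those of untreated alpha7+/T mice 3 and 4, and 792 to 1417 on all high-ratio arrays. With the array class as a term in the model, 11 members were called for seizure in alpha7+/T mice (17.7%, against 13.3% of all tested probe sets). They were Gna11, Gna12, Gnai2 (99598_g_at), Gnao1 (103843_at), Gnb1 (97458_at), Pde6d, Rgs3 and Rgs14, lower, and Gnb1 (94854_g_at), Rgs4 and Rgs8, higher. Rgs4 then differed by 2.10 ± 0.68 (adjusted p = 0.039). The high-ratio arrays on their own gave 0 calls (0.177% of all) and Rgs4 differed by 0.78 ± 0.91. The low-ratio ones gave 8 (12.9%, against 9.28%), Gnb1 (97458_at), Gna11, Gna12, Gnai2, Gnao1, Rgs3, Rgs14 and Rgs4, and there Rgs4 differed by 3.44 ± 0.85 (adjusted p = 0.0293). That fit sets 3 seized mice against 2 untreated ones. For Rgs4 those 2 read 5.12 and 105, so its size depends on the single low value. With array class and age both as terms, 1 was called, Gnao1 (103843_at, -0.59 ± 0.14, adjusted p = 0.0364). Since the class is not spread evenly over the groups, no term removes it with certainty.

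In untreated wild-type mice the members separated by age about as often as other genes. Values at 6 weeks and at 7 to 9 weeks did not overlap for 13 of the 62 probe sets (21%, against 18.7% of all tested ones), 10 higher (9.48% of all) and 3 lower (9.21%) at 6 weeks. Gna12 (97226_at) was 540 to 628 at 6 weeks and 259 to 372 later, and Gna11 (102196_at) 441 to 490 and 320 to 366. Pde6d was 369 to 461 and 289 to 343, and Rgs7 442 to 504 and 260 to 330. Gna11 by 103411_at did not separate. These mice also differ in the prefix of their sample names, LT at 6 weeks and B4 later, so age and prefix cannot be told apart.

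Probe sets of a gene often disagreed. Of the 13 genes with 2 or more tested probe sets, all had the same sign in 8 for the seizure average, 10 for seizure in alpha7+/T mice, 7 for alpha7+/T and 8 for beta4-/- set against wild-type mice without treatment. Gnao1 agreed in sign across 4 probe sets in both alpha7 comparisons, whereas Gng12 and Rgs16 did not in the untreated one. A different Gnao1 probe set passed in each, 103843_at after seizure and 161902_f_at without treatment. The same untreated alpha7+/T mice enter both comparisons, so the agreement is not separate evidence. The spread within groups was usual for the array, with a median pooled SD of 0.345 on the log2 scale for members and 0.349 for all tested probe sets.

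Other genes of the pathway, from 8 lists of protein kinase A subunits, cyclic nucleotide effectors, CREB and DARPP-32, guanylyl cyclases, phospholipase C beta, receptor kinases and arrestins, G protein activators and GIRK channels, gave few calls. Of 59 listed genes 32 were on the array and 19 were tested by 27 probe sets. Without treatment, 3 probe sets were higher in alpha7+/T than in wild-type mice and none lower (11.1% of 27, against 16% of all tested probe sets). They were Plcb1, the phospholipase activated by Gq (0.53 ± 0.13, adjusted p = 0.0166), Gpsm3, a modulator of Gi (1.03 ± 0.31, adjusted p = 0.0307), and Kcnj9, a GIRK channel subunit (1.62 ± 0.46, adjusted p = 0.0249). After seizure in alpha7+/T mice only Pdc, the photoreceptor phosducin that binds beta-gamma, was called, and it fell (-2.42 ± 0.66, adjusted p = 0.0428). That call was 3.7% of the 27, against 2.8% of all tested probe sets. No listed probe set passed in the other comparisons.

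Markers of other cell types were called in the untreated alpha7 comparison no more often than other genes: of 62 tested marker probe sets, 4 were higher and 5 lower, 14.5% against 16% of all tested probe sets. Higher were Gfap of astrocytes (0.75), Mag of oligodendrocytes (1.53), and the striatal Penk (1.53) and Foxp1 by 1 probe set (1.17). Lower were Foxp1 by another probe set (-0.68), Stmn2 of neurons (-0.54) and the cerebellar Car8 (-0.9), Gabra6 (-0.58) and Pvalb (-0.71). The medians of whole lists were 0.14 over 8 neuron probe sets, 0.31 over 6 of astrocytes, 0.49 over 9 of oligodendrocytes and -0.04 over 9 of cerebellum. Over the 6 striatal probe sets the median was -0.0004, so the list as a whole was not higher. Retina and pineal markers summed to 234 to 342 in untreated alpha7+/T mice and 98.7 to 183 in untreated wild-type mice, and Pdc is among them. After seizure in alpha7+/T mice 2 marker probe sets fell, Cldn5 of endothelium (-1.26) and Pdc. One seized alpha7+/T array had a summed pituitary marker signal of 11200, against at most 550 in every other group. Their part in the member results was not tested.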

How the data were processed

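RNA from whole brains of 28 mice was measured on 1 Affymetrix U74Av2 array each. The deposited values are intensities (MAS5 signal, per the submitters' processing notes; version: not given in the sources used here). In the files their 2% trimmed mean is 150.1 on every array, and array medians run from 43.6 to 61.1. No counts exist, so precision is set by the number of arrays. Nothing in the labels names separate extractions beyond 1 sample per mouse.

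Symbols came from the platform annotation: of 12422 probe sets that are not controls (66 were left out), 10833 had 1 gene, 396 several and 1193 none listed. All 86 members matched the RefSeq table (GRCm38.p6) by gene identifier. Probe sets were kept where the signal was above the array's median on at least 3 arrays (7350, 59.2%). A model with 1 mean for each of the 6 groups was fitted to log2 signal with limma 3.58.1 in R 4.3.3 (eBayes with trend), with Benjamini-Hochberg adjustment over the 7350. Errors are standard errors of the fit unless named otherwise. The fit was tested on simulated data drawn independently for each probe set, without array class, age or prefix effects. That test therefore says nothing on how these move the calls. Tables and figures used Python 3.11.15.

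Genes given with values were every passing member, per family the 3 probe sets with the smallest p for the seizure average and the 2 with the smallest in each untreated comparison, and a list of genes by role; others with values were picked after they were seen (those near the threshold, those separating by array class or age, and disagreeing probe sets). The members and lists were chosen with earlier results of these data known. The alternatives tried were quantile normalization, median centring, no filter, a floor at the 25th percentile (11.58), array class or age or sex as a term, each array class alone, mice of 7 weeks or older, the compared groups alone and leaving out each mouse; array class with age, the prefix of the sample names as a term and mice of each prefix alone were added after seeing the data.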

Additional observations from a re-analysis of the deposited data

Results flagged for a closer look

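Among 215 groups of 4 to 6 mice (43 probe sets, 5 groups each), 8 held a mouse whose gap to its nearest neighbour was a large share of the group's range by Dixon's test; chance gives about 1 in 20. Gnaq (99981_at) was 4.967 in seized beta4-/- mouse 4, against 31.83 to 44.56 in the other three. Gng4 (99898_at) was 32.44 in the same mouse, against 73.93 to 85.99. Gnb1 (94853_at) was 138 in untreated beta4-/- mouse 3, against 98.95 to 106.5. In untreated alpha7+/T mouse 5, the oldest of its group, Gnb2 was 825.6 (others 1535 to 1869) and Pde9a was 50.92 (others 76.55 to 82.12). Pde8a was 51.09 in untreated alpha7+/T mouse 4 (others 80.29 to 89.2). Rgs16 (161609_at) was 76.3 in seized alpha7+/T mouse 5 (others 44.61 to 50.03). Rgs4 was 3.128 in untreated wild-type mouse 4 (others 17.1 to 21.46). Of these 8 arrays' values, 7 came from high-ratio arrays and that of Pde8a from a low-ratio array.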

How the results depend on the processing

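No paired analysis was possible because the numbers in the sample names are those of single mice and tie no mouse to one in another group. Calls of members for seizure in alpha7+/T mice (1 as reported) became 5 with quantile normalization, 11 with array class as a term, 8 on low-ratio arrays alone, 3 with sex as a term and 3 with the prefix of the sample names as a term; they became 0 with median centring, 0 on high-ratio arrays alone, 0 with age as a term, 0 in mice of 7 weeks or older, 0 in LT-prefix mice alone and 0 with the compared groups alone. Leaving out each mouse gave 0 to 8: 0 without untreated alpha7+/T mouse 2 or 3, 8 without mouse 5, 3 without mouse 4, 4 without seized mouse 4, 3 without seized mouse 5, and 2 without untreated wild-type mouse 5 or seized beta4-/- mouse 1 or 4. Calls for untreated alpha7+/T mice (7) became 4 with quantile normalization, 0 on high-ratio arrays alone, 0 in mice of 7 weeks or older, 1 with the compared groups alone, 1 with prefix as a term and 0 in LT-prefix mice alone. Leaving out each mouse gave 0 to 10: 3 without untreated wild-type mouse 3, 4 without wild-type mouse 6, 0 without alpha7+/T mouse 3 and 1 without alpha7+/T mouse 4. Counts were 0 for the other 7 comparisons in every setting run. Totals over all tested probe sets moved too. For seizure in alpha7+/T mice, 126 higher and 80 lower became 168 and 131 with quantile normalization and 67 and 67 with median centring. For untreated alpha7+/T mice, 568 and 609 became 373 and 646 with quantile normalization. The changes in member counts are therefore not read as particular to these genes. The cause was not tested. Fewer mice remain at 7 weeks or older (1 untreated alpha7+/T mouse), and no wild-type array is low-ratio, so low-ratio arrays alone give no value for wild-type mice or the seizure average.

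Median centring moved the median of all tested probe sets by -0.24 for untreated alpha7+/T, -0.21 for seized alpha7+/T and -0.13 for untreated beta4-/- against wild-type mice. For the first, members called were then 1 higher and 5 lower (5 and 2 as reported), and over all tested probe sets 191 and 1256 (568 and 609 as reported). Quantile normalization gave 4 and 0. The 5 members lower were Gng12, Adcy9, Gna13 (100514_at), Gnai1 (104412_at) and Gng10.

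Of 60 single log2 differences, 614 of 713 values in other settings kept direction and side of the threshold, 57 lost the call, 3 gained one and 39 changed sign; with each mouse left out 1601 of 1680 did so and 39 changed sign. Signs changed for seizure averaged over genotypes as follows. With array class as a term: Adcy8 0.0123, Gnai2 (99596_f_at) 0.0332, Rgs7 0.0474. On high-ratio arrays alone: Adcy8 0.0117, Gnai2 (99596_f_at) 0.0944, Gnas (102082_at) 0.00111, Gnb1 (97458_at) 0.0541, Gng2 -0.108, Pde4b -0.0577, Rgs14 0.0887, Rgs16 (161609_at) 0.0126, Rgs7 0.0476. With age as a term: Gnao1 (104414_at) -0.0283, Gng2 -0.031, Rgs16 (94378_at) 0.0096, Rgs7 0.0145. With array class and age: Adcy8 0.00125, Gnai2 (99596_f_at) 0.0383, Gnao1 (104414_at) -0.00893, Gnb1 (94853_at) 0.0263, Gng2 -0.121, Rgs7 0.0795. With prefix as a term: Gnao1 (104414_at) -0.00809, Rgs7 0.0204. In mice of 7 weeks or older: Gnao1 (100388_at) 0.472, Gnao1 (104414_at) -0.125, Gnaq 0.188, Gnb2 0.264, Pde1b 0.132, Rgs16 (94378_at) 0.0566. Gnao1 (104414_at) was -0.00409 with quantile normalization, -0.0105 with median centring and -0.00395 with sex as a term, and Gnas (93271_s_at) was 0.0229 with quantile normalization. For untreated alpha7+/T mice, in mice of 7 weeks or older: Gnai1 (104412_at) 0.22, Gnb2 -0.217, Gng10 0.0677, Pde9a -0.329, Rgs3 -0.0602. With each mouse left out, the seizure average ran from -0.0565 to 0.0564 for Adcy8, -0.0359 to 0.0543 for Gnao1 (104414_at), -0.136 to 0.00842 for Gnas (102082_at), -0.0777 to 0.0169 for Rgs16 (161609_at), -0.05 to 0.000713 for Rgs16 (94378_at) and -0.0538 to 0.0475 for Rgs7.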
